A study of Mus musculus with 2 samples.

Results

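The genes described here drive or mark cell proliferation, and they were followed in dorsal skin from Mpzl3 null pups set against wild-type littermates. The list holds 36 genes of DNA replication, chromosome cohesion and mitosis, listed by name. It was chosen with earlier results of these data known, so counts of members beside shares of all genes are descriptions and not tests. A member was taken as measured where the array held a probe that names it and no other gene. This held for 35 of the 36, out of 18855 named genes with a value, and cyclin B1 (Ccnb1) had no such probe. The members rest on 53 probes, with 1 probe for 20 members, 2 for 12 and 3 for 3.

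Null pups aged 9 days (P9) were set against wild-type littermates aged 9 days, and null pups aged 1 day (P1) against wild-type littermates aged 1 day. Both genotypes were untreated as far as the labels say. How the null allele was made, the strain, and whether a channel held 1 pup or a pool were not given in the sources used here. There were 2 Agilent arrays with 2 dyes, 1 per age, and null RNA carried Cy5 and wild-type RNA Cy3 on both. Each value is a deposited log2 ratio of null over wild type, so a value below 0 means a lower signal in the null channel, and a step of 1 is a 2-fold ratio. This direction rests on the dye labels alone, since the array titles give their sample letters as B against A at P9 and as A against B at P1, and what the letters stand for is not given. Were 1 array to run the other way, all its signs would turn, and the difference between the ages would no longer hold as given. With 1 array per age there was no replicate array, no test was run, no p-value is given, and precision is limited by the number of arrays. The error given with a value is the SD between probes of the gene, which says nothing of animals. Pooled over all genes with at least 2 probes it was 0.36 log2 (1.28-fold) on either array. A gene is called lower or higher where the mean of its probes was at least 2-fold and no probe had the opposite sign. Whole skin was profiled, so fewer cycling cells and less RNA per cell cannot be told apart.

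Cells copy their DNA in S phase and divide in mitosis. Before S phase, Cdc6 and Cdt1 load the Mcm helicase onto replication origins, and E2F factors switch on the genes that the coming S phase needs. Later in the cycle, Foxm1 and other factors raise the genes of mitosis, whose products build the spindle and guard the separation of chromosomes. In young skin, dividing cells lie mainly in the basal layer of the epidermis and in the matrix of growing hair follicles.

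Members of both phases share promoter letters that the choice of the list did not use, and the promoters are shown here because the order of the results follows these phases. Promoter windows of RefSeq (build GRCm38.p6, 250 bases before to 50 after the start) were found for 28 of the 36 members. The letters searched, on both strands, were TTTCGCGC and TTTGGCGC for E2F, TTTGAA for the cell cycle homology region (CHR) of mitotic promoters, and CCAAT. A gene with several windows was counted where any of them held the letters. E2F letters were in the windows of 6 members (21.4%) against 0.929% of the 27025 genes with a window, CHR letters in 12 (42.9%) against 20.2%, and CCAAT in 21 (75%) against 41.1%. Of the 6 members with E2F letters, 5 belong to licensing and S phase entry (Cdt1, Mcm3, Mcm5, Mcm6 and Mcm7) and the other is Cdk1. CHR letters were in 4 of 5 mitotic cyclins and kinases and in 2 of 10 licensing genes. A match is a description of these letters and not a binding site. The 250 bases before the start of 4 members follow, with matches in capitals. Mcm5 was the highest member at both ages, Cdk1 holds all 3 kinds of letters, Cdc20 holds CHR beside CCAAT, and Plk1 had the largest difference between the ages. In the order printed, the regions are chr8:75109259-75109508 (plus strand), chr10:69352913-69353162 (minus strand), chr4:118437344-118437593 (minus strand) and chr7:122159185-122159434 (plus strand).
Mcm5: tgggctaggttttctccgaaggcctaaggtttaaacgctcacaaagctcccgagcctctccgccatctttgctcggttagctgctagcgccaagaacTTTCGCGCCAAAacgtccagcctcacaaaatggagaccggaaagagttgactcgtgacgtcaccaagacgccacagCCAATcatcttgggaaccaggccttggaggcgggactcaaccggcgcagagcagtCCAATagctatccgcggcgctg
Cdk1: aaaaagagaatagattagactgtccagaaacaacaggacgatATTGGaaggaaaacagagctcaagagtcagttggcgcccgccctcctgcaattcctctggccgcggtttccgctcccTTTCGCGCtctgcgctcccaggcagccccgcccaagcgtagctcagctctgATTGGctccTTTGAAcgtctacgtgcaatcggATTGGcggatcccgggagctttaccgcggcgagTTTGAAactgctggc
Cdc20: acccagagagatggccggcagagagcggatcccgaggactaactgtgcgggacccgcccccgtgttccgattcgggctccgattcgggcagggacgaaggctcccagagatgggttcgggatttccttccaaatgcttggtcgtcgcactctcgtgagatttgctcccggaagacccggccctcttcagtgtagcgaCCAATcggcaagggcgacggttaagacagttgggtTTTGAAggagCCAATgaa
Plk1: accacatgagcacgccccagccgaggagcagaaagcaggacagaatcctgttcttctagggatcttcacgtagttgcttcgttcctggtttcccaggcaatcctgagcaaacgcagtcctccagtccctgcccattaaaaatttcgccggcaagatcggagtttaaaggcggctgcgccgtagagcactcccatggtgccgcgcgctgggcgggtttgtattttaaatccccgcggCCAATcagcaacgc
In Mcm5 the E2F letters were found once on each strand, and these matches overlap each other. Elsewhere in the 4 printed stretches no match overlaps another. The CHR match of Plk1 lies in the 50 bases after the start and is not printed.

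Some facts of the arrays bear on every value that follows. Mpzl3 itself, by 1 probe, was at 0.20 at P9 and −0.21 at P1, and since the place of this probe relative to the deleted part is not given, it does not check the labels. At P9 the channels also differed in sex-linked transcripts, with Xist at 3.67 and Eif2s3y at −3.98. At P1 Xist was at −1.03 ± 0.77 (SD, 4 probes), with probes at −1.42, −1.41, −1.42 and 0.115. Uty, a gene of the Y chromosome, was at 0.33 ± 0.57 (SD, 2 probes) at P1. None of the 35 members lies on X or Y (0 on either), but a gene need not lie there to differ with sex. The sex of the pups and the genotype can thus not be told apart at P9. A part of sex in the P1 values was not tested, and P1 cannot be taken as free of it. In the difference of P9 minus P1, sex and age cannot be told apart either. Over the 16647 genes measured on both arrays the ratios correlated with r = 0.674, over the 35 members with r = 0.820, or 0.748 without Esco2, and over 79 control spots with r = 0.560. The array titles hold the same number with different last letters, which may mean a shared slide, though no label says so. The points share the dyes. Genotype, dye and anything fixed to a probe can therefore not be told apart where both ages show a like ratio.

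The arrays asked how null skin differed at each age. As a group, the cell cycle genes lay slightly below 0 at P9 and near 0 at P1, and Esco2 was the only member past 2-fold at either age. At P9 the members had a median of −0.073, against 0.023 for all named genes, and 25 of 35 (71.4%) lay below 0, against 46.6% of all genes. At P1 the median was 0.039, against 0.061 for all genes, and 17 of 35 (48.6%) lay below 0, against 44.1%. Called lower was 1 member of 35 at each age, where 0.465% of all genes were called lower at P9 and 1.17% at P1. Called higher were 0 members at each age, where 2.24% of all genes were called higher at P9 and 1.72% at P1. With each array centred on the median of its genes, the called genes at P1 split into 236 higher and 264 lower, in place of 296 and 201. At the lower threshold of 1.5-fold, 3 members were lower at P9 (Ccne2, Aurkb and Esco2) and 0 higher, where 3.3% and 6.17% of all genes passed. At P1, 2 were lower (Ccne2 and Esco2) and 1 higher (Mcm5), where 6.92% and 9.08% passed. Within 1 pooled probe SD of 0 were 30 of 35 members at P9, where 75.2% of all genes lay, and 24 of 35 at P1, where 61.5% lay. The members are plotted by probe for both ages.

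**Figure D1:**
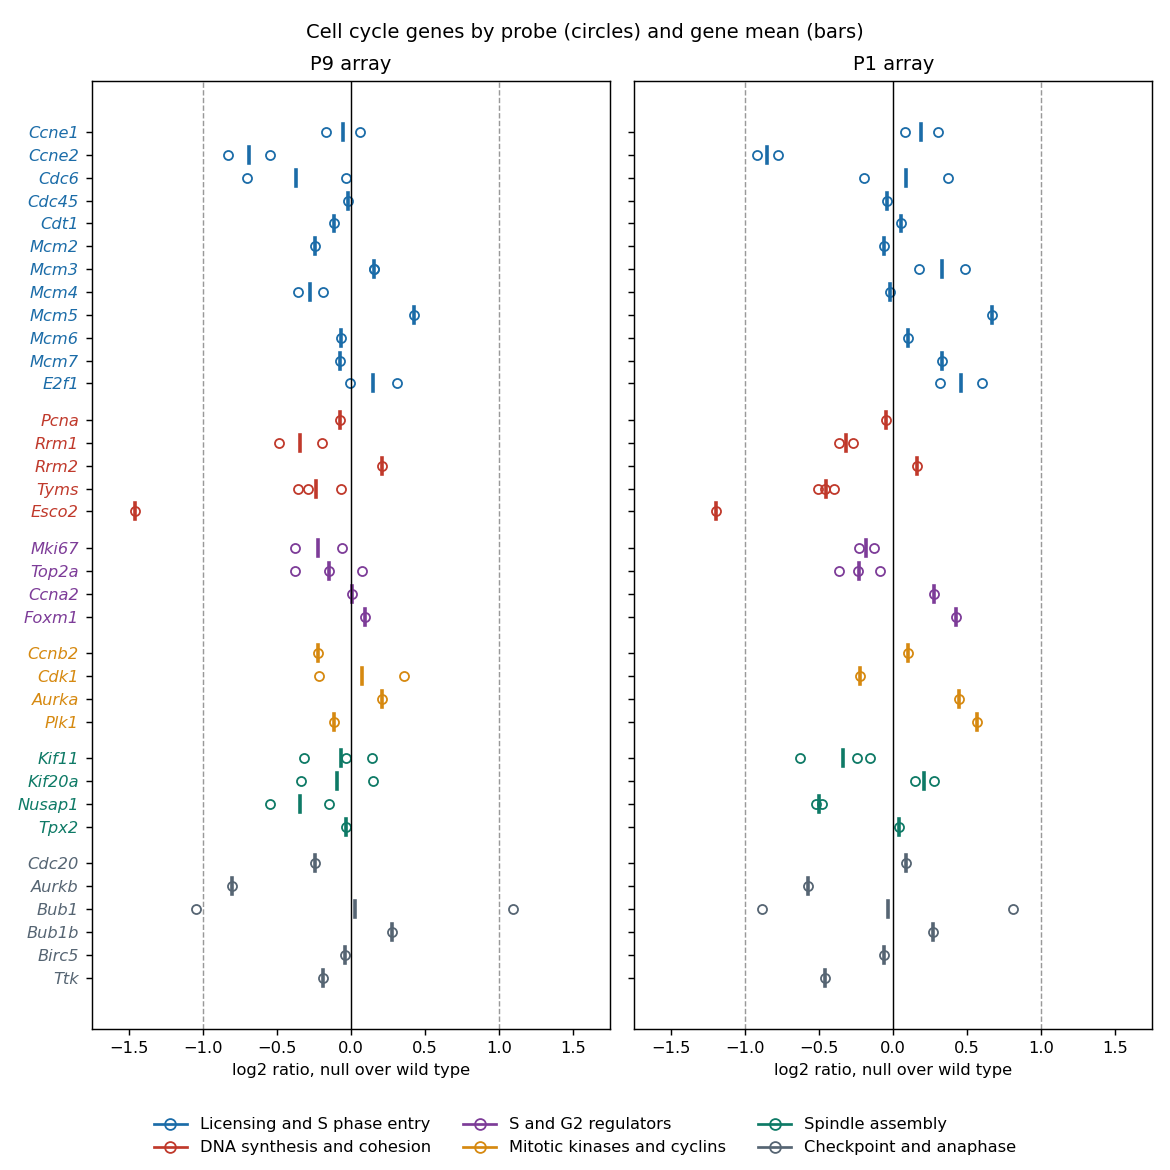
Log2 ratio of null over wild type for the 35 measured cell cycle genes at P9 (left) and P1 (right), with circles for probes, bars for gene means and dashed lines at 2-fold; colours give the role. Only the mean of Esco2 lies past a dashed line, and the 2 probes of Bub1 lie on opposite sides of 0 on both arrays.

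Esco2 acetylates cohesin in S phase so that sister chromatids stay joined until anaphase. Its 1 probe was at −1.46 at P9 and −1.20 at P1, a signal 2.74-fold and 2.29-fold lower in the null channel. Among all genes it ranked 11th from the lowest of 18269 at P9 and 96th from the lowest of 17233 at P1. The ratio was low on both arrays, and no other probe of the gene bears on it. The other members of DNA synthesis and nucleotide supply were closer to 0. Rrm1, the large subunit of ribonucleotide reductase, was at −0.34 ± 0.21 (SD, 2 probes) at P9 and −0.32 ± 0.067 at P1, with all 4 values below 0. Rrm2, the small subunit of the same enzyme, was at 0.21 at P9 and 0.16 at P1 by 1 probe, so the subunits had opposite signs at both ages. Tyms, which makes thymidylate, had 3 probes, all below 0 at both ages, with means of −0.24 ± 0.15 at P9 and −0.46 ± 0.057 at P1. Pcna, the sliding clamp of DNA polymerase, was at −0.073 at P9 and −0.046 at P1.

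The genes of origin licensing and S phase entry had a median of −0.071 at P9, with 9 of 12 below 0, and of 0.091 at P1, with 8 of 12 above 0. None passed 2-fold (0 of 12 at each age), where 0.465% of all genes were called lower and 2.24% higher at P9. At P1 these shares were 1.17% and 1.72%. Cyclin E2 (Ccne2), which partners Cdk2 at the start of S phase, was the lowest of the 12 genes. Its 2 probes were at −0.83 and −0.55 at P9, with a mean of −0.69 ± 0.20 (SD, 2 probes), and at −0.78 and −0.92 at P1, with a mean of −0.85 ± 0.10. Only 1.98% of all genes lay below it at P9 and 2.23% at P1. Its paralog cyclin E1 (Ccne1) was at −0.054 ± 0.16 (SD, 2 probes) at P9 and 0.19 ± 0.16 at P1, so of the 2 E cyclins only Ccne2 had all its probes below 0 on both arrays. Among the subunits of the replicative helicase the values did not run together. Mcm5 was highest at 0.43 at P9 and 0.67 at P1, by 1 probe. Mcm3 was above 0 at both ages, at 0.16 ± 0.0021 (SD, 2 probes) at P9 and 0.33 ± 0.22 at P1. Mcm2, by 1 probe, was at −0.24 at P9 and −0.059 at P1, and Mcm4 was at −0.27 ± 0.12 (SD, 2 probes) at P9 and −0.023 at P1 by the 1 probe with a value, so both lay below 0 at each age. Mcm6 was at −0.069 at P9 and 0.097 at P1, and Mcm7 at −0.072 at P9 and 0.33 at P1, each by 1 probe and each above 0 only at P1.

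The means of the remaining licensing genes were within 1.5-fold. E2f1, the transcription factor of S phase genes, was at 0.15 ± 0.22 (SD, 2 probes) at P9 and 0.46 ± 0.20 at P1. The loading factor Cdc6 was at −0.37 ± 0.47 (SD, 2 probes) at P9 and 0.085 ± 0.40 at P1, and its probes had opposite signs at P1. Its partner Cdt1 was at −0.11 at P9 and 0.052 at P1, and Cdc45, which joins the helicase when an origin fires, at −0.018 at P9 and −0.042 at P1. None of these exceeded the pooled probe spread at both ages.

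The common marks of cycling cells were slightly below 0. Mki67, the gene of the Ki-67 antigen, was at −0.22 ± 0.22 (SD, 2 probes) at P9 and −0.18 ± 0.067 at P1, with all 4 values below 0. Top2a, the topoisomerase that untangles replicated chromosomes, was at −0.15 ± 0.23 (SD, 3 probes) at P9 and −0.23 ± 0.14 at P1, and 1 of its probes was above 0 at P9. The null signal of both genes lay between 0.853 and 0.901 of the wild-type signal, so their means were within the pooled probe SD of all genes. At P1 both means were larger in size than the SD between the gene's own probes. Cyclin A2 (Ccna2), the cyclin of S and G2 phase, was at 0.007 at P9 and 0.27 at P1 by 1 probe. Foxm1, which drives mitotic genes, was at 0.095 at P9 and 0.42 at P1 by 1 probe.

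The 4 measured mitotic kinases and cyclins had medians of −0.022 (P9) and 0.28 (P1). Plk1, a kinase of mitotic entry and exit, was at −0.12 at P9 and 0.56 at P1, by 1 probe. Aurora A (Aurka), a kinase of the centrosome, was above 0 at both ages, at 0.21 at P9 and 0.45 at P1. Cyclin B2 (Ccnb2), a partner of Cdk1, was at −0.22 at P9 and 0.10 at P1. Cdk1, the main kinase of mitosis, was at −0.22 and 0.36 at P9 by its 2 probes, and at −0.23 at P1 by the first, while the other was blank. The probe measured at both ages thus had nearly the same ratio, and the P9 mean of 0.072 ± 0.41 (SD, 2 probes) came from the other.

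Genes of spindle assembly were all below 0 at P9 (4 of 4) and split evenly at P1. Nusap1, which bundles spindle microtubules, was the lowest, at −0.35 ± 0.28 (SD, 2 probes) at P9 and −0.50 ± 0.028 at P1. The motor Kif11, which pushes the spindle poles apart, was at −0.067 ± 0.23 (SD, 3 probes) at P9 and −0.34 ± 0.25 at P1. Kif20a, a motor of cytokinesis, was at −0.094 ± 0.34 (SD, 2 probes) at P9 and 0.21 ± 0.091 at P1. Tpx2, which activates Aurora A on the spindle, was at −0.031 at P9 and 0.039 at P1. Apart from Nusap1 at P1, these means lay within the pooled probe spread.

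Among genes of the spindle checkpoint, the chromosomal passenger complex and anaphase, Aurora B (Aurkb) was the lowest. This kinase of the passenger complex corrects faulty attachments of chromosomes. Its 1 probe was at −0.80 at P9 and −0.57 at P1, and only 1.14% of all genes lay below it at P9. Survivin (Birc5), a subunit of the same complex, was at −0.042 at P9 and −0.059 at P1. The remaining subunits, named after their values were seen, were Incenp at −0.28 at P9 and 0.054 at P1 by 1 probe, and Cdca8 (borealin) at 0.016 ± 0.081 (SD, 3 probes) at P9 and 0.18 ± 0.33 (SD, 2 probes) at P1. The checkpoint kinase Ttk was at −0.19 at P9 and −0.46 at P1. Bub1b, the gene of the checkpoint protein BubR1, was above 0 and nearly equal at both ages, at 0.28 at P9 and 0.27 at P1. Cdc20, the target of the checkpoint and activator of the anaphase-promoting complex, was at −0.24 at P9 and 0.088 at P1.

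Bub1, a kinase of the same checkpoint, cannot be given a direction. Its first probe was at −1.04 at P9 and −0.88 at P1, and its second, which the platform annotation assigns to another transcript record, was at 1.10 at P9 and 0.81 at P1. The gap of 2.14 log2 at P9 and 1.70 at P1 was the widest among members with at least 2 measured probes, where the median gap was 0.32 over 15 members at P9 and 0.22 over 13 at P1. Each probe kept its sign on both arrays, and the means of 0.027 ± 1.51 (SD, 2 probes) at P9 and −0.036 ± 1.20 at P1 describe neither. Over the 29 probes of members with at least 2 measured on both arrays, the deviations from the gene mean at P9 and P1 correlated with r = 0.898, or 0.616 without Bub1, and over all genes with r = 0.673. The probes of a gene shared 1 sign in 8 of 15 members at P9 and in 11 of 13 at P1.

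**Figure D2:**
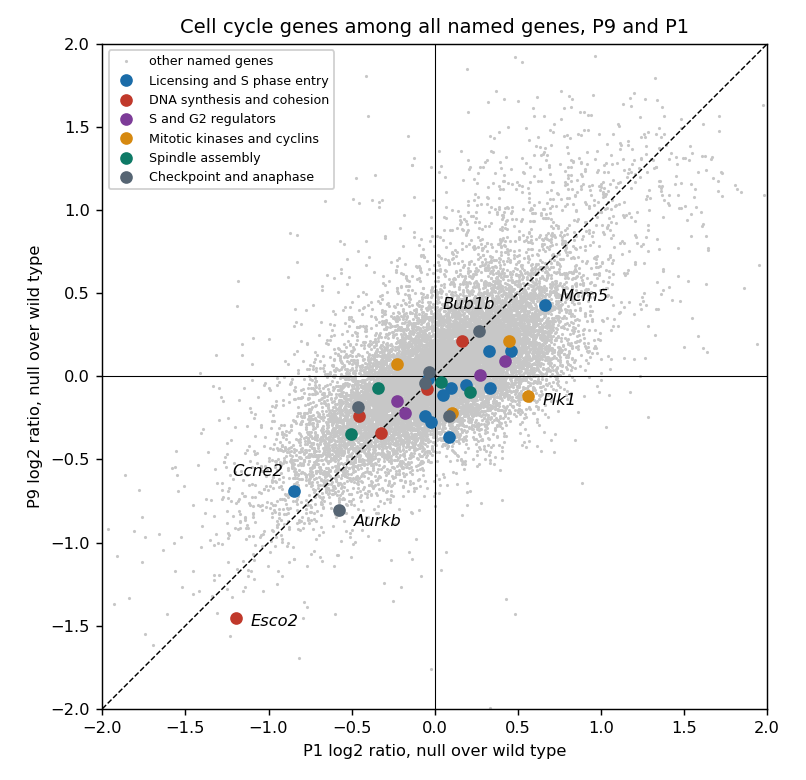
Log2 ratio of null over wild type at P9 (y axis) and P1 (x axis) for 35 cell cycle genes (coloured by role) and other named genes measured on both arrays (grey; genes beyond 2 in size are not drawn), with a dashed line of equal ratios. Esco2 is at −1.46 at P9 and −1.20 at P1, and Plk1 lies below the line at −0.12 at P9 and 0.56 at P1.

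Comparing the ages asked whether the ratio of null over wild type differed between P9 and P1. The difference of P9 minus P1 was taken probe by probe, over probes with a value on both arrays, so anything fixed to a probe that acts alike on both arrays cancels. A difference in spread between the arrays does not cancel. The quartiles of all genes were −0.17 and 0.23 at P9 and wider, −0.22 and 0.33, at P1. The members had a median difference of −0.17, against −0.014 for all named genes, and 23 of 35 (65.7%) lay below 0, against 51.9% of all genes. With the arrays centred and scaled to a like spread, the median difference was −0.10 for members and 0.016 for all named genes. Past 2-fold were 0 members in either direction, where 0.259% of all genes were called lower and 0.603% higher. At 1.5-fold, Plk1 was the 1 member called lower and 0 were called higher, against 3.16% and 3.87% of all genes. Below 0 at P9 and above 0 at P1 were 10 of the 35 members, against 13.9% of all genes, and 2 had the opposite signs, against 11.6%. A further 15 were below 0 at both ages and 8 above 0 at both, where all genes gave 32.6% and 41.8%.

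The difference was below 0 in 10 of the 12 licensing and S phase entry genes, with a median of −0.18. Cdc6 had the lowest value among them, at −0.45 ± 0.074 (SD, 2 probes), and Mcm7 was at −0.40. E2f1 was at −0.31 ± 0.020 (SD, 2 probes) and Ccne1 at −0.24 ± 0.0035, so both probes of each of these genes differed alike. All 6 helicase subunits were below 0, with Mcm7 at the value given above. Mcm2 was at −0.18, Mcm3 at −0.17 ± 0.21 (SD, 2 probes), Mcm4 and Mcm6 at −0.17, and Mcm5 at −0.24. Apart from Mcm3, each subunit rests on 1 probe in the difference. Only Mcm7 was larger in size than the pooled probe SD of the difference, 0.29. Cdt1 was at −0.16. The exceptions in this role were Ccne2 at 0.16 ± 0.30 (SD, 2 probes) and Cdc45 at 0.024. Values by gene were not scaled for the wider spread at P1. The size and sign of a difference may depend on this for genes far from 0 at P1, such as Ccne2 at −0.85.

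Among the other members the difference did not run in 1 direction, and these values too were not scaled for the wider spread at P1. Plk1 had the lowest value of all members at −0.68, a ratio 1.60-fold lower at P9 than at P1, with 1.80% of all genes below it. Cdc20 at −0.33, Foxm1 at −0.33, Ccnb2 at −0.32, Kif20a at −0.30 ± 0.25 (SD, 2 probes), Ccna2 at −0.27, Esco2 at −0.26, Aurka at −0.23 and Aurkb at −0.23 were also below 0. Each of these except Kif20a rests on 1 probe. In the other direction were Ttk at 0.28, Kif11 at 0.28 ± 0.14 (SD, 3 probes), Tyms at 0.22 ± 0.097 (SD, 3 probes) and Nusap1 at 0.16 ± 0.25 (SD, 2 probes). All 3 probes of Kif11 and of Tyms lay above 0 in the difference. At P1 itself, Ttk, Kif11, Tyms and Nusap1 were each below 0. The genes named above with a difference below 0 were above 0 at P1, except Esco2 and Aurkb. Mki67 at −0.040 ± 0.29 (SD, 2 probes), Top2a at 0.079 ± 0.19 (SD, 3 probes), Pcna at −0.027, Rrm1 at −0.020 ± 0.27 (SD, 2 probes) and Rrm2 at 0.047 were near 0. So were Bub1 at 0.062 ± 0.31 (SD, 2 probes), Bub1b at 0.008, Birc5 at 0.017, Tpx2 at −0.070 and Cdk1 at 0.009 by its shared probe.

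The difference between the ages varied with the number of probes. The 20 members with 1 probe had a median difference of −0.21 with 15 below 0, and the 15 with more had −0.020 with 8 below 0. All genes with 1 probe had a median of −0.067 (58.0% below 0) and those with more of 0.030 (45.3% below 0). By promoter letters, the 6 members with E2F letters had a median difference of −0.17, with 5 below 0, and the 21 measured members without them of −0.020, with 11 below 0. Of those 6, 5 are licensing genes, and all but Mcm3 rest on 1 probe in the difference. Among licensing genes with a window but without E2F letters, Cdc6 (−0.45), E2f1 (−0.31), Ccne1 (−0.24) and Mcm2 (−0.18) were below 0 and Cdc45 (0.024) above. Letters, role and number of probes can thus not be told apart. The 12 members with CHR letters had a median of −0.016, with 6 below 0, and the 15 without of −0.16, with 10 below 0. The values by member are plotted in order of the difference.

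**Figure D3:**
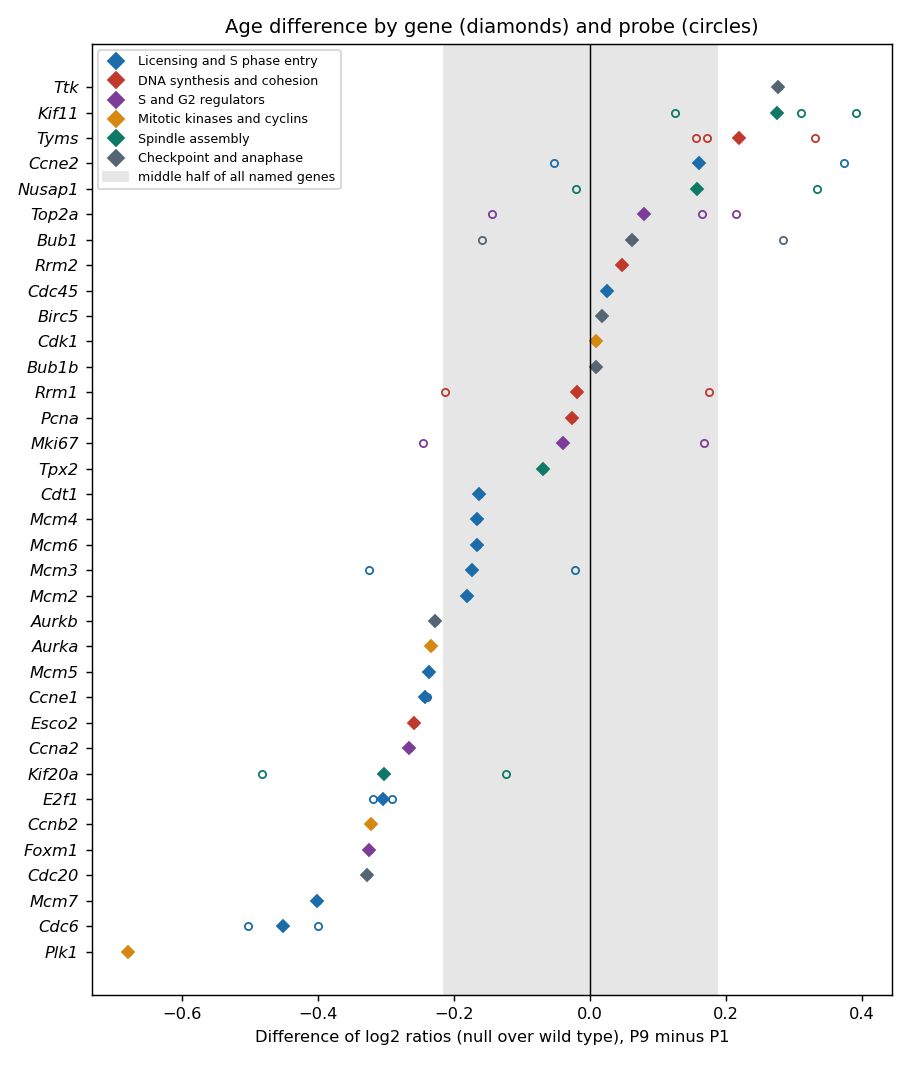
Difference of the log2 ratio (null over wild type) of P9 minus P1 for 35 cell cycle genes in order, with diamonds for gene means and circles for probes of genes with several; the grey band holds the middle of all named genes, from the first to the third quartile (−0.22 to 0.19). Plk1 is lowest at −0.68, Ttk is highest at 0.28, and licensing genes (blue) lie mostly below 0.

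Other genes of the cycle, listed by function with earlier results of these data known, were read beside the members. They were 180 genes with a P9 value and 182 with a P1 value. Below 0 were 117 of 180 (65%) at P9, against 46.6% of all genes, and 98 of 182 (53.8%) at P1, against 44.1%. Called lower were 1 at P9 and 3 at P1, where 0.465% and 1.17% of all genes were. Called higher were 0 at either age, where 2.24% of all genes were at P9 and 1.72% at P1. In the difference 0 were called in either direction, where 0.259% of all genes were lower and 0.603% higher. Their median difference of P9 minus P1 was −0.053, and that of the members −0.17. By list, 17 of 24 G1 and RB-E2F genes (70.8%, median −0.105) had a difference below 0. So had 12 of 18 inhibitors of cyclin-dependent kinases and arrest genes (66.7%, median −0.0845), against 65.7% of the members. Lower shares were found for mitosis (57.9%), DNA replication (53.7%), ubiquitin ligases (50%), and cohesin and condensin (30%), against 51.9% of all genes.

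The 41 measured DNA replication genes outside the list had medians of −0.15 (P9) and −0.020 (P1). The X-linked catalytic subunit of DNA polymerase alpha, Pola1, was at −0.36 ± 0.56 (SD, 2 probes) at P9, and was called lower at P1 at −1.08 by 1 probe. Fen1, a nuclease that trims Okazaki fragments, was the highest at P9 at 0.43, and Mcm10, an initiation factor, had the lowest difference at −0.60. The 57 measured mitosis genes outside the list had a median of −0.18 on both arrays, with 39 below 0 at P9. Kif20b, a motor of cytokinesis, was at −0.54 ± 0.57 (SD, 3 probes) at P9, and was called lower at P1 at −1.05 ± 0.090. Kif18a, which shortens the microtubules that hold chromosomes, was called lower at P9 at the threshold itself, −1.0 by 1 probe, and was at −0.88 at P1. Melk, a kinase of dividing cells, was at −0.015 ± 0.32 (SD, 2 probes) at P9 and 0.67 ± 1.03 at P1, the lowest difference in this list at −0.68.

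Cohesin and condensin genes, which hold and compact the chromosomes, had a median of −0.14 at P9 with 15 of 20 below 0, and of −0.33 at P1 with 14 of 21 below 0. Esco1, the other cohesin acetyltransferase, was at −0.52 ± 0.62 (SD, 3 probes) at P9, and was called lower at P1, at −1.07 ± 0.13. The cohesin loader Nipbl was at −0.45 ± 0.28 (SD, 5 probes) at P9 and −0.87 ± 0.40 (SD, 4 probes) at P1. Ncapd2, a condensin subunit, was highest at both ages, at 0.33 ± 0.13 (SD, 2 probes) at P9 and 0.68 ± 0.21 at P1. The difference of this list had a median of 0.14 with 6 of 20 below 0, on the other side of 0 from the members, and that contrast was not tested.

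Genes of G1 phase and the RB-E2F axis had medians of −0.22 (24 genes, P9) and −0.024 (25 genes, P1), and 0 passed 2-fold. Of all genes, 0.465% were called lower and 2.24% higher at P9, and 1.17% and 1.72% at P1. E2f4, a repressor of cycle genes in resting cells, was the lowest at P9 at −0.93 by 1 probe. Mycn, a transcription factor of growing cells, had the lowest difference at −0.58 (2 probes), followed by Mybl2, which activates mitotic genes, at −0.56. The G1 cyclins Ccnd1 and Ccnd3 were the highest at P9, at 0.48 and 0.51.

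Markers of skin cell types are given beside the members, and their part in these values was not tested. Hair matrix markers had a median of −0.19 at P9 with 5 of 7 below 0, of 0.22 at P1 with 6 of 7 above 0, and a difference of −0.36 with 6 of 7 below 0. Their P9 values ranged from −0.42 for Shh to 0.39 for Foxn1, and their P1 values from −0.17 for Shh to 0.47 for Dlx3. For basal keratinocytes the median of the 8 markers with a P9 value was 0.14, from −0.17 to 0.52, and that of 11 markers at P1 was 0.12, from −0.23 to 0.66. Krt5 and Krt14, which define the basal layer, were blank at P9. The medians of suprabasal markers were 0.52 at P9 (6 genes, from 0.41 to 0.96) and 0.055 at P1 (5 genes). Those of the keratins of activated epidermis were 0.88 at P9 (3 genes) and 0.32 at P1 (4 genes), and Krt16 was called higher at P9, at 1.08, and in the difference, at 1.21. Dermal fibroblast markers had a median of −0.30 at P9 over 6 genes, from −1.20 for Col1a2 to 0.069 for Col1a1, and of −0.41 at P1, from −1.56 for Dcn to 0.32 for Col1a1. Col1a2, a chain of type I collagen, was called lower at both ages by 1 probe, at −1.20 at P9 and −1.12 at P1. Col1a1, the gene of the other chain, was at 0.069 ± 0.25 (SD, 2 probes) at P9 and 0.32 ± 0.37 at P1, means smaller than their SD. Dcn, the gene of the matrix proteoglycan decorin, was at −0.45 at P9, and was called lower at P1 and higher in the difference, at 1.11. These are ratios between channels, so no marker gives a level that would check the tissue label.

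**Figure D4:**
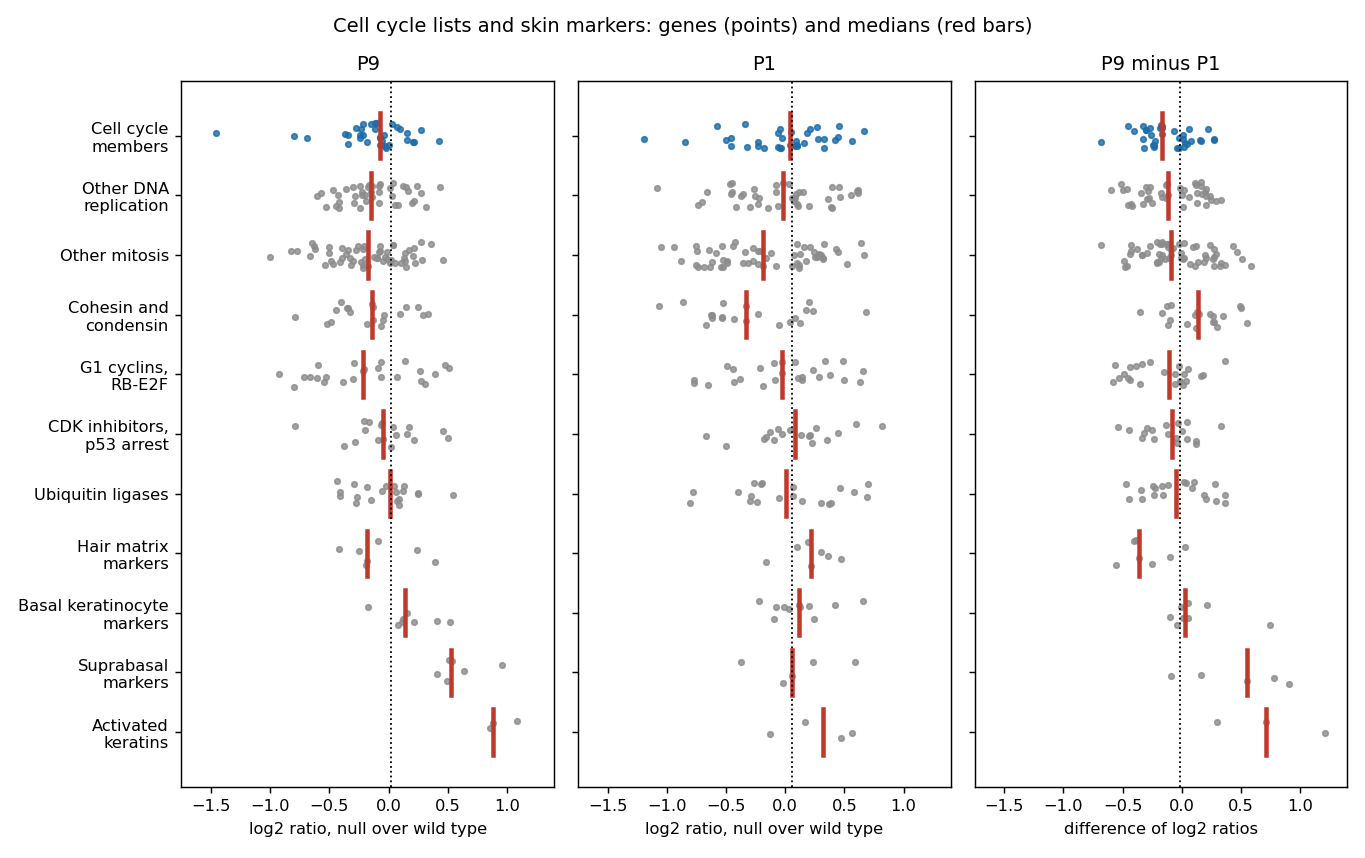
Log2 ratio of null over wild type at P9 (left) and P1 (middle) and their difference (right) for the cell cycle members (blue), other cell cycle lists and skin markers (grey), with red bars for medians and a dotted line for the median of all named genes. Members have medians of −0.073 (P9), 0.039 (P1) and −0.17 (difference), hair matrix markers of −0.19, 0.22 and −0.36, and activated keratins lie above 0 at P9.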

How the data were processed

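The values are log2 ratios of null (Cy5) over wild type (Cy3) that the authors deposited, 1 column per array and 39212 rows. Per the labels, dorsal skin RNA was amplified to amino allyl RNA and hybridised to Agilent Whole Mouse Genome arrays. Background correction, normalization and the filter behind blank cells (4.71% at P9, 11.3% at P1) were not stated. Base 2 is an inference: the largest size, 4.90, is then 29.8-fold. Centring is unknown beyond medians of 0.005 at P9 and −0.007 at P1. Direction was taken from the dye labels alone, since the order of sample letters in the titles differs between the arrays and is not explained.

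Probe names came from the platform annotation, with symbols updated through Entrez identifiers against RefSeq (GRCm38.p6, 31210 of 31337 probes matched), and 40 probes naming several genes were left out. Probes of a gene were averaged. All members were described, and in other lists the genes called and the highest and lowest 2 were available to name. The members and lists were chosen with earlier results of these data known. Alternatives changed the fold threshold, probe summary, probes, members, centring and scaling. Python 3.11.15, numpy 2.4.6, pandas 2.3.3 and matplotlib 3.10.9 were used, and the call rule was tested on simulated data.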

Additional observations from a re-analysis of the deposited data

Results flagged for a closer look

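With 1 array per age, 12 members had a mean ratio on one side of 0 at P9 and on the other at P1, and these differences were not tested. The same sign at both ages was found for 23 of 35 members, against 74.3% of all genes measured on both arrays. The members below 0 at P9 and above 0 at P1, with the difference of P9 minus P1, were Plk1 (−0.68), Cdc6 (−0.452), Mcm7 (−0.402), Cdc20 (−0.328), Ccnb2 (−0.323), Kif20a (−0.304), Ccne1 (−0.242), Mcm6 (−0.166), Cdt1 (−0.163) and Tpx2 (−0.07). The pooled SD between probes of a gene was 0.29 log2 for the difference itself. The differences of Plk1, Cdc6, Mcm7, Cdc20, Ccnb2 and Kif20a were larger in size than this, and the remaining 4 were smaller. Cdk1 and Bub1 were above 0 at P9 and below 0 at P1. The difference of Cdk1 was 0.009 over the probe measured on both arrays, so its change of sign came from a probe that was blank at P1. The difference of Bub1 was 0.062, the mean of 2 probes that had opposite signs on each array.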

How the results depend on the processing

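At a threshold of 1.5-fold, 3 members were called at P9 (Ccne2, Aurkb and Esco2 lower), 3 at P1 (Ccne2 and Esco2 lower, Mcm5 higher) and 1 in the difference of P9 minus P1 (Plk1, lower). Of all genes, 3.3% were lower and 6.17% higher at P9, 6.92% and 9.08% at P1, and 3.16% and 3.87% in the difference. Over members with at least 2 probes, 0 were called at 2-fold at P9, P1 or in the difference, since Esco2 has 1 probe. At 2-fold, 0.465% of all genes were lower and 2.24% higher at P9, 1.17% and 1.72% at P1, and 0.259% and 0.603% in the difference. The median over members ran from −0.15 to −0.073 at P9, from −0.18 to 0.039 at P1 and from −0.17 to −0.020 in the difference. Its sign changed only at P1, where it was −0.18 over members with at least 2 probes, −0.022 with the arrays centred and −0.019 with them centred and scaled. With 1 probe, the value of Esco2 could move only with centring and scaling. It was at −1.48 (centred) and −1.78 (centred and scaled) at P9, and at −1.26 and −1.07 at P1, still past 2-fold. Each array set null beside wild type in its 2 channels, but with 1 array per age there were no replicate pairs to analyse. Limits are the single array per age, dyes that were not swapped, channels that differ in sex-linked transcripts, and 20 of 35 members resting on 1 probe. No spot intensity was used, so signal over background is unknown.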

Other observations

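Genes that restrain the cycle were also read. Inhibitors of cyclin-dependent kinases and arrest genes of the p53 response had medians of −0.051 (P9) and 0.087 (P1) for the 18 measured genes. None was past 2-fold (0 at either age). Of all genes, 0.465% were called lower and 2.24% higher at P9, and 1.17% and 1.72% at P1. Cdkn1a, the gene of the inhibitor p21, was at 0.16 at P9 and 0.60 at P1 by 1 probe. Cdkn1b, the gene of the inhibitor p27, was at −0.17 ± 0.39 (SD, 3 probes) at P9 and −0.50 ± 0.46 at P1, so the 2 inhibitors had opposite signs at both ages. Ccng1, the cyclin G1 gene that p53 induces, was the lowest of the list at both ages, at −0.79 ± 0.13 (SD, 2 probes) at P9 and −0.67 ± 0.050 at P1. Sesn2, a sestrin of the stress response, was the highest at both ages, at 0.50 ± 0.77 (SD, 2 probes) at P9 and 0.82 ± 0.57 at P1.

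Ubiquitin ligases that destroy cycle proteins had medians of 0.011 at P9 and 0.0035 at P1 over 20 genes, with 10 below 0 at each age. Past 2-fold were 0, where the shares of all genes are those just given. Fzr1, which activates the anaphase-promoting complex in G1 phase, was the highest at both ages, at 0.54 ± 0.24 (SD, 2 probes) at P9 and 0.70 ± 0.27 at P1. Cul1, the scaffold of SCF ligases, was the lowest at both ages, at −0.44 at P9 and −0.81 at P1.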
